A study of Mus musculus with 10 samples.

Results

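Gut segment identity transcription factors were followed in RNA-seq libraries of mouse intestinal organoids. The members were chosen by name: *Gata4*, *Gata5*, *Gata6*, *Cdx1*, *Cdx2*, *Hnf4a*, *Hnf4g*, *Pdx1* and *Onecut2*, which are 9 of the 47069 genes in the deposited table. All 9 were found, 8 of them passed the filter on low counts and entered the tests, and *Pdx1* did not.

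These proteins bind DNA and set which digestive and transport genes the gut lining makes along its length. The CDX factors carry the intestinal program from duodenum to colon, and CDX2 is required for it. GATA4 is made in duodenum and jejunum but not in distal ileum or colon, where its absence lets ileal bile acid genes be made, while GATA6 is made along the whole gut. HNF4A and its close relative HNF4G are nuclear receptors that sustain enterocyte genes of fat handling and the brush border. PDX1 and ONECUT2 are best known in the pancreas and proximal small intestine.

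The organoids came from C57BL/6 mice with an *Lgr5-EGFP-CreERT2* allele and *Ppp2r1a* flox/flox, were grown in Matrigel with Noggin, EGF and R-spondin-1 (NER medium), and had 50 days in culture in all groups. The 5 groups of 2 libraries were control (NER medium with saline), DMBA (the carcinogen 7,12-dimethylbenzanthracene, labelled Long), TAM short and TAM long (tamoxifen, which activates the Cre, labelled dosage-sensitive and short or Long), and DMBA+TAM (both agents). The Cre is made from the *Lgr5* locus and so acts in crypt stem cells, whose progeny carry the deletion. The sources used here do not define short and long, the study grew organoids of both small intestine and colon, and which segment each library came from is not stated either. Library titles begin with NS in control, NL in DMBA, DSS_S in TAM short, DSS_L in TAM long and Lgr5 in DMBA+TAM, and so do not name the agents of the treatment labels. They carry the letter S in control and in TAM short and the letter L in DMBA and in TAM long, while DMBA+TAM has neither as such a mark. The letter therefore cannot be told apart from the treatments that go with it. The labels do not say that the libraries of a group came from separate cultures or animals, so the p-values measure only the spread between these samples, which may be technical.

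The libraries held 8828247 to 10923673 counts, except DMBA+TAM with 1592366 and 1915270, where 3 counts stand for 1.58 and 1.32 normalized CPM (counts scaled to the TMM-adjusted library total). *Ppp2r1a*, the gene that Cre deletes, had 123 to 169 normalized CPM over the 10 libraries. It was at 123 and 129 in control, 131 and 147 in TAM short, 169 and 157 in TAM long and 129 and 133 in DMBA+TAM. No group with tamoxifen thus lay below control, but counts over the whole gene do not check the loss of its floxed exons. DMBA+TAM libraries did not look like the labelled intestinal organoid: the summed level of 10 general epithelial genes was 26.4 and 42.2 normalized CPM there against 13523 to 22858 elsewhere, and that of 10 fibroblast genes was 32747 and 33571 against 689 to 2420. DMBA replicate 2 stood apart in a list of 10 pancreas genes, at 2335 normalized CPM against 72.4 in replicate 1 and at most 133 in the other libraries. Smooth muscle genes summed to 7243 to 12944 normalized CPM in the 4 libraries with an L and to 1221 to 2308 in the 4 with an S.

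The bases before the transcription starts of *Gata5*, *Cdx2* and *Hnf4a* are shown because the first of these genes fell to near 0 in DMBA and TAM long while the others stayed at high levels there. They were read from RefSeq's promoter table for GRCm38.p6, which gave 5 starts for 4 of the members whose sequence could be printed, and are written 5′ to 3′ on the strand of the gene, without bases that GENCODE M21 places in exons except those of a match. In the 250 bases before each start, both strands were searched for 7 short motifs. GATA factors were searched for with AGATAA and, as an alternative core, TGATAA. For CDX factors the letters were TTTATG and, in a second form, TTTATT. The HNF1 motif was GTTAAT, that of HNF4 was CAAAGTC and that of Onecut factors was ATCAAT, and no match overlapped another. Capitals mark the matches. The runs are *Gata5* at chr2:180334700-180334929 (minus strand), *Cdx2* at chr5:147307271-147307499 (minus strand), and *Hnf4a* at chr2:163506607-163506810 and chr2:163546943-163547154 (plus strand), the second start lying 40298 bases downstream of the first.
Gata5: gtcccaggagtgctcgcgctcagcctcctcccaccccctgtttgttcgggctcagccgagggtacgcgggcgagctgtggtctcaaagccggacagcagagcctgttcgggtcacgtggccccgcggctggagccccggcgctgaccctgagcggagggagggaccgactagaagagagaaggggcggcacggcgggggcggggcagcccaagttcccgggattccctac
Cdx2: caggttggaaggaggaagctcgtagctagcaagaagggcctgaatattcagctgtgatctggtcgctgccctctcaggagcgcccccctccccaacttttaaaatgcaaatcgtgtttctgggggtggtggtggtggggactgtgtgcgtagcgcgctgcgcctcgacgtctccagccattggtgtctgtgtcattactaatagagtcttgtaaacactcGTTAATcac
Hnf4a, upstream start: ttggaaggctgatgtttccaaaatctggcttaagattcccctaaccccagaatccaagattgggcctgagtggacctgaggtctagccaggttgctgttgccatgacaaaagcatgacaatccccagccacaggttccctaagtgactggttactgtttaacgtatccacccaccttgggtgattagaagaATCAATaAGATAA
Hnf4a, downstream start: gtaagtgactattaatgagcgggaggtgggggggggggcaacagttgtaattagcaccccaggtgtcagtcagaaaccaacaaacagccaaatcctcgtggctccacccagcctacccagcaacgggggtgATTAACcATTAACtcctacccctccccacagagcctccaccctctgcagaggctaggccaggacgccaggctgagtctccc
The *Gata5* window held none of the motifs, had a higher share of G and C than 90.8% of the 32851 starts in the table, and held 22 CpG dinucleotides. The *Cdx2* window held GTTAAT at positions -30 to -25, with -1 the last base before the start. The upstream *Hnf4a* window held ATCAAT at -59 to -54 and AGATAA at -52 to -47, and the downstream one held the reverse complement of GTTAAT at -81 to -76 and at -74 to -69. Of all 32851 windows of this length, 16.6% held a GATA motif, 25.5% a CDX motif, 6.43% the HNF1 motif, 3.84% the HNF4 motif and 6.72% the Onecut motif. The matches are descriptions of letters, not sites shown to be bound, and the counts here are sums over all transcripts of a gene, so the 2 starts of *Hnf4a* cannot be separated in them.

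In control organoids the members spanned a wide range of levels per length. The deposited FPKM of *Hnf4a* was highest at 386 ± 18.9 (SD, n = 2), followed by *Hnf4g* at 131 ± 14.9. *Gata4*, *Cdx2* and *Cdx1* came next at 65.8 ± 3.84, 60.9 ± 0.766 and 49.8 ± 9.25 FPKM, close to each other but without overlap between the libraries of neighbours. *Gata6* had 23.2 ± 0.262, *Gata5* 14.5 ± 1.66, *Onecut2* 1.38 ± 1.05 and *Pdx1* 0.183 ± 0.0684 FPKM. The order was another one in DMBA and TAM long, where *Hnf4a* (382 ± 63.8 and 342 ± 5.28 FPKM) was followed by *Cdx1* (175 ± 19.6 and 126 ± 19.6) and *Cdx2* (105 ± 37.0 and 90.6 ± 6.81), and where *Hnf4g* was at 8.66 ± 2.75 and 13.9 ± 2.84. *Gata6* (12.9 ± 0.309 and 12.3 ± 0.158 FPKM) lay above *Hnf4g* in DMBA and within its spread in TAM long. In TAM short the first 4 were *Hnf4a* at 577 ± 7.37, *Hnf4g* at 95.6 ± 5.44, *Cdx1* at 88.8 ± 8.57 and *Cdx2* at 73.2 ± 6.00, of which *Hnf4g* and *Cdx1* did not differ beyond their spread, and neither did *Gata6* (15.7 ± 1.58) and *Gata4* (12.3 ± 8.02).

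**Figure D1:**
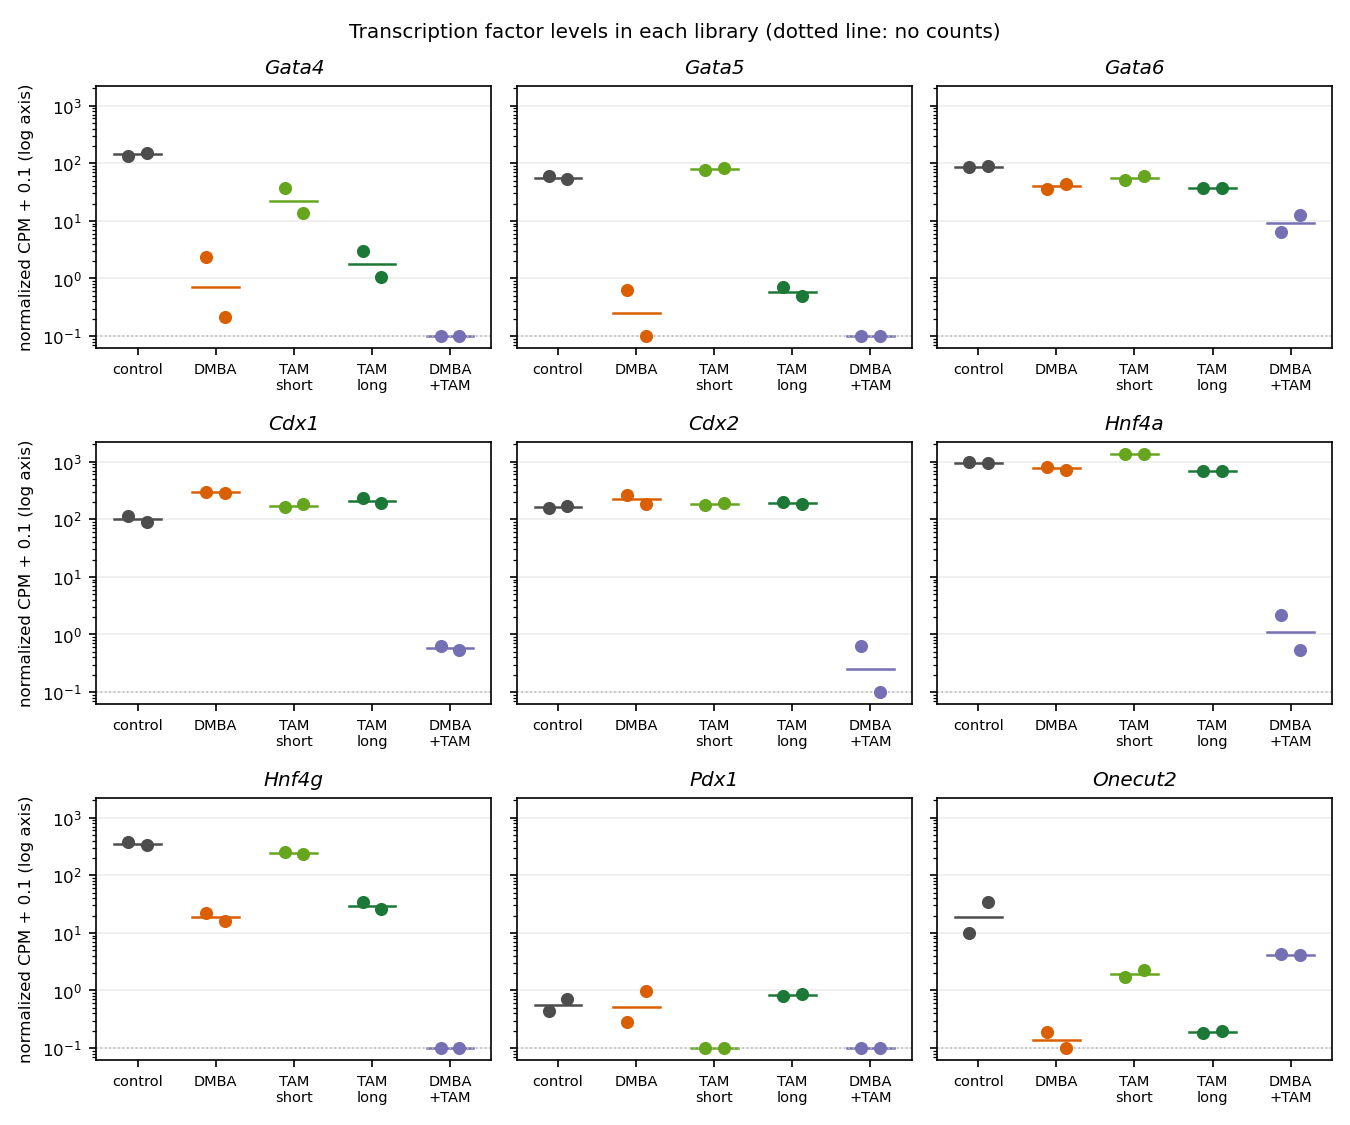
Normalized CPM + 0.1 on a log axis (points, 1 per library; bars, geometric mean of the 2) for the 9 genes in 5 groups, with the dotted line marking libraries without a count. *Gata4*, *Gata5*, *Hnf4g* and *Onecut2* sit far lower in DMBA and TAM long than in control, *Cdx1*, *Cdx2* and *Hnf4a* stay above 90 normalized CPM in the first 4 groups, and in DMBA+TAM *Gata4*, *Gata5*, *Hnf4g* and *Pdx1* lie on the dotted line while *Cdx1*, *Cdx2* and *Hnf4a* are at most at 2.11 normalized CPM.

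The comparisons ask how expression in these organoids differed with the carcinogen, with tamoxifen and with both together. Against control, 6 of the 8 tested members passed the threshold (adjusted p under 0.05 in edgeR's quasi-likelihood F-test, adjusted by Benjamini-Hochberg over 16179 genes) in DMBA, 5 lower and 1 higher, where 47.8% of all tested genes passed, 23.3% lower and 24.5% higher. TAM long had 7 of 8 past the threshold, 6 lower and 1 higher, against 46.0% of all genes, 22.8% lower and 23.2% higher. TAM short had 4 of 8, 3 lower and 1 higher, against 14.3% of all genes, 7.8% lower and 6.52% higher. That count moved with the setting: it was 7 with only the groups compared, 2 with limma on log2(FPKM + 0.1), 2 and 1 without control replicate 1 and 2, and 3 and 1 without TAM short replicate 1 and 2. The count in DMBA was 8 with DESeq2. It was 7 with library size only, no filter, limma on log2(FPKM + 1), thinned counts or without the DMBA+TAM libraries. The count in TAM long was 6 with library size only and with limma on either scale. These 3 comparisons share the control libraries. Between TAM long and TAM short 6 of 8 were lower and 0 higher, against 42.2% of all genes, 20.3% lower and 22.0% higher, and 3 were called with limma on log2(FPKM + 0.1), where *Gata6*, *Hnf4a* and *Onecut2* were lost, and 4 with thinned counts, where *Gata6* and *Onecut2* were lost. Against control, the median log2 fold change of the 8 members was -2.69 for DMBA, -2.39 for TAM long and -0.18 for TAM short, and it was -2.00 in TAM long against TAM short, beside 0.07, 0.05, -0.04 and 0.05 over all tested genes. Since RNA of whole cultures was measured, fewer cells of a type and less RNA per cell cannot be told apart in any of these differences.

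**Figure D2:**
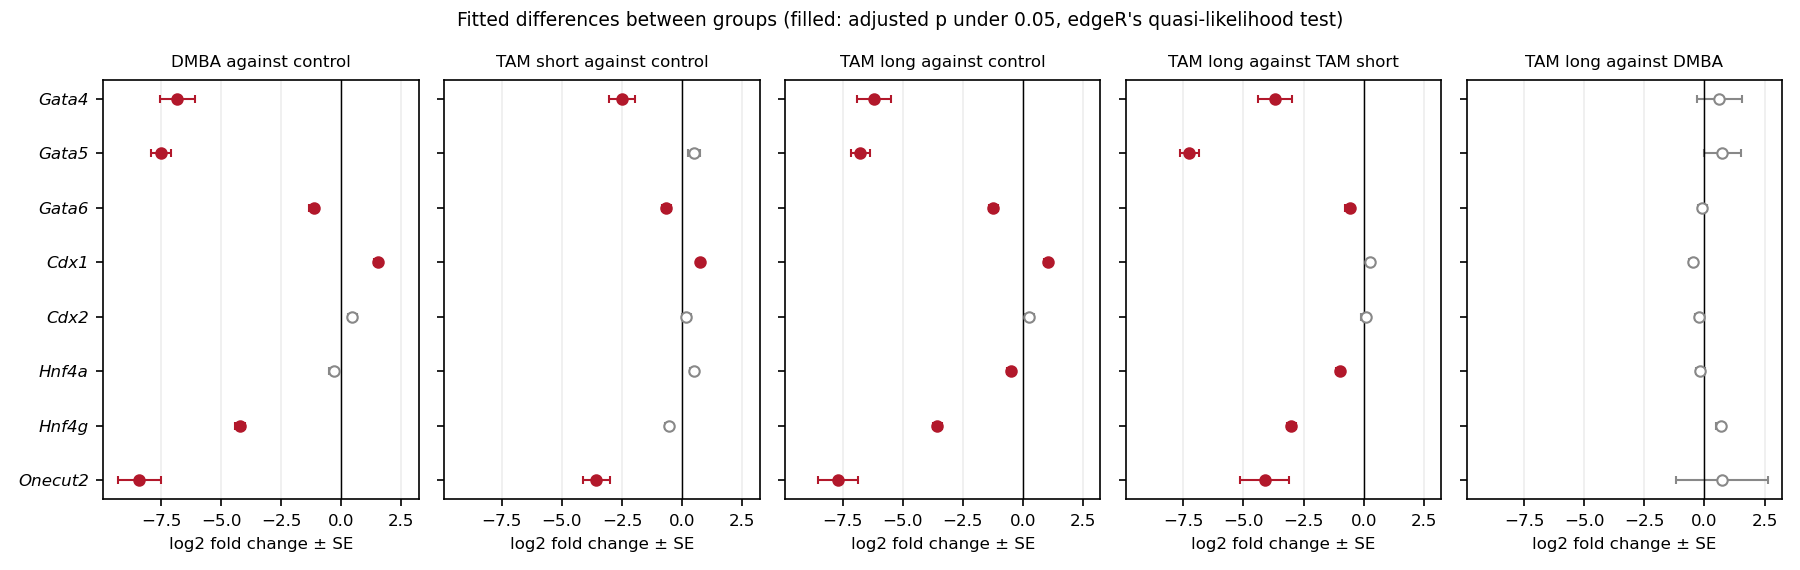
Fitted log2 fold changes (points) of the 8 tested genes in 5 comparisons, filled where the adjusted p was under 0.05. The bars are standard errors worked back from the F statistic of the test, not measured apart from it. In DMBA and TAM long against control 4 genes lie beyond -3, *Cdx1* lies to the right of 0, and between TAM long and DMBA no point is filled.

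*Gata4* (ENSMUSG00000021944, chr14:63198922-63271692 of GRCm38 in GENCODE M21, as for the genes that follow) encodes the GATA factor of proximal small intestine. It had 1203 and 1269 counts in control, 327 and 108 in TAM short, 25 and 1 in DMBA, 33 and 10 in TAM long and 0 in both DMBA+TAM libraries. The control libraries were highest and the groups did not overlap between control, TAM short and the pair of DMBA and TAM long. The log2 fold change against control was -6.82 in DMBA (SE 0.74, adjusted p = 0.00012), -6.20 in TAM long (SE 0.70, adjusted p = 0.000157) and -2.51 in TAM short (SE 0.55, adjusted p = 0.0175), and that of TAM long against TAM short was -3.69 (SE 0.69, adjusted p = 0.00289). The DMBA value rests on low counts and was -10.16 without DMBA replicate 1 and -6.01 without replicate 2, past the threshold both times, and that of TAM long was -7.18 without TAM long replicate 1. The TAM short value depended on its libraries: it was -1.97 without replicate 2 (adjusted p = 0.186) and -3.40 without replicate 1 (adjusted p = 0.0436), without either control library its adjusted p was 0.101 and 0.125, and DESeq2 gave an adjusted p of 0.205, in a range of 9.32e-37 to 0.205 over all alternatives. Against TAM short, TAM long was at -2.80 without TAM short replicate 1 and at -4.67 without TAM long replicate 1.

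*Gata5* (ENSMUSG00000015627, chr2:180325133-180334699), whose product shares the zinc fingers of GATA4, had 530 and 438 counts in control, 670 and 654 in TAM short, 6 and 0 in DMBA, 7 and 4 in TAM long and 0 in DMBA+TAM. It thus separated the libraries by the letter of their titles, and TAM short was not below control. The log2 fold change was -7.50 in DMBA (SE 0.43, adjusted p = 3.46e-06) and -6.76 in TAM long (SE 0.40, adjusted p = 3.78e-06) against control, and -7.25 in TAM long against TAM short (SE 0.39, adjusted p = 5.22e-06). In TAM short it was 0.49 against control (SE 0.25, adjusted p = 0.237, or 0.00236 with only the libraries of the groups compared, in a range of up to 0.612). The DMBA value was -6.68 without DMBA replicate 2. Without replicate 1 no count of *Gata5* was left in DMBA, so only a bound exists there, from a control mean of 56.3 normalized CPM and a floor of 0.337.

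*Gata6* (ENSMUSG00000005836, chr18:11052064-11085635), made along the length of the gut and also outside its epithelium, kept more of its level. Normalized CPM was 85.6 and 90.0 in control, 51.9 and 59.9 in TAM short, 36.2 and 43.0 in DMBA, 37.3 and 37.2 in TAM long and 6.33 and 12.8 in DMBA+TAM. Control, TAM short and the 2 L groups formed 3 levels without overlap. It fell by 1.15 on the log2 scale in DMBA (SE 0.18, adjusted p = 0.00064), by 1.23 in TAM long (SE 0.18, adjusted p = 0.00044) and by 0.65 in TAM short against control (SE 0.18, adjusted p = 0.0379). The TAM short call was lost when library size alone set the scale (-0.56, adjusted p = 0.0635), with limma, and without any of the 4 libraries compared (adjusted p from 0.167 to 0.262, and from 0.00109 over all alternatives). Against TAM short, TAM long was at -0.58 (adjusted p = 0.0263), or -0.35 with library size only (adjusted p = 0.134), and that call was also lost with limma, with thinned counts (-0.23) and without any of its 4 libraries (adjusted p from 0.00298 to 0.448 over all alternatives). Library size only shifted the median gene against control by 0.31 for DMBA, 0.32 for TAM long and 0.09 for TAM short, and by 0.23 in TAM long against TAM short (log2). Beside these falls, 4 of 10 general epithelial genes were lower and 4 higher in DMBA than in control, and 4 lower and 3 higher in TAM long; the part of epithelial content in the result was not tested.

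Within the family the GATA genes changed places. By FPKM, *Gata4* made up 63.5 ± 2.21% of the 3 genes in control (SD, n = 2), *Gata6* 22.4 ± 0.277% and *Gata5* 14.1 ± 1.93%. In TAM short *Gata5* had the largest mean share at 44.0 ± 7.15% (39.0 and 49.1% in the libraries). *Gata6* was at 32 ± 6.50% (27.4 and 36.6%) and *Gata4* at 24.0 ± 13.6% (33.6 and 14.3%). The ranges of mean and SD overlap, while *Gata5* had the largest share in both libraries. *Gata6* made up 94.4 ± 7.31% in DMBA and 90.9 ± 5.33% in TAM long, where the summed FPKM of the family was 13.7 ± 0.730 and 13.6 ± 0.969 against 104 ± 2.45 in control and 49.7 ± 5.15 in TAM short. Of 6 paralogs of these factors, *Gata1*, *Cdx4* and *Onecut1* had no count in any control library, and *Gata2* and *Gata3* were at 0.527 ± 0.106 and 0.708 ± 0.362 normalized CPM there.

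**Figure D3:**
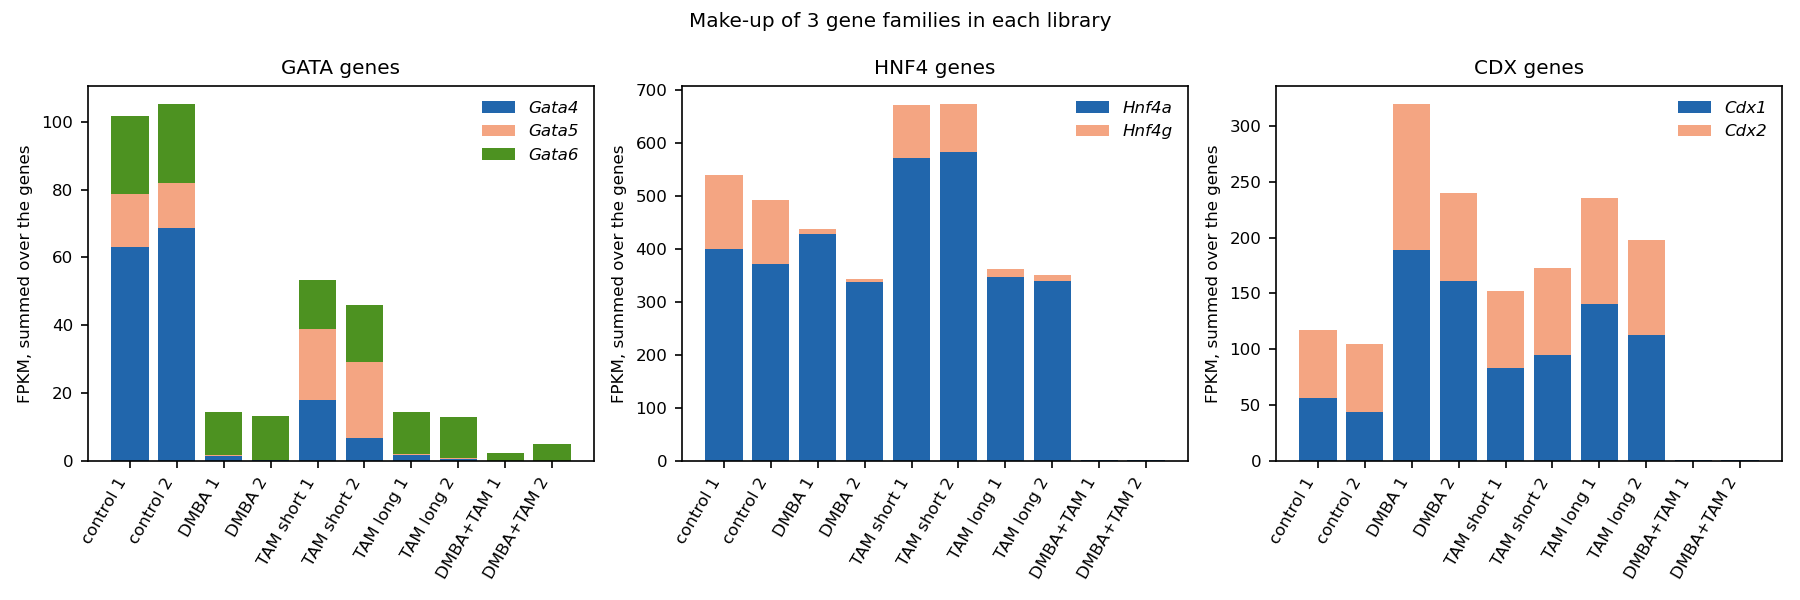
FPKM per library, stacked by gene from 0, for the GATA, HNF4 and CDX genes. The GATA stack falls from a mean of 104 FPKM in control to 13.7 in DMBA and 13.6 in TAM long and is nearly all *Gata6* there, *Hnf4g* becomes a thin band on *Hnf4a* in the same libraries, and the CDX stack is higher than in control in all 6 libraries of DMBA, TAM short and TAM long.

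The HNF4 pair split in the same libraries. *Hnf4g* (ENSMUSG00000017688, chr3:3508030-3658052) had 374 and 330 normalized CPM in control, 252 and 233 in TAM short, 21.6 and 15.7 in DMBA, 34.1 and 25.8 in TAM long and no count in DMBA+TAM. Control was highest, TAM short lower without overlap, and DMBA and TAM long lower again. The log2 fold change against control was -4.23 in DMBA (SE 0.20, adjusted p = 1.37e-06), -3.55 in TAM long (SE 0.20, adjusted p = 2.66e-06) and -0.54 in TAM short (SE 0.18, adjusted p = 0.0766). The last was past the threshold with DESeq2 (adjusted p = 0.037), with no filter on low counts (0.00661), with only the libraries of the groups compared (0.00248) and with the replicate number as a block (0.0267), and its adjusted p was at most 0.357 over all alternatives. TAM long against TAM short was at -3.01 (SE 0.19, adjusted p = 1.11e-05).

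*Hnf4a* (ENSMUSG00000017950, chr2:163506808-163572910), the partner that also works in liver and pancreas, had 975 and 941 normalized CPM in control, 1335 and 1363 in TAM short, 803 and 729 in DMBA and 685 and 680 in TAM long. TAM short was highest and TAM long lowest of these, without overlap between the 4 groups. Its log2 fold change against control was -0.32 in DMBA (SE 0.17, adjusted p = 0.15), 0.49 in TAM short (SE 0.17, adjusted p = 0.0886) and -0.49 in TAM long (SE 0.17, adjusted p = 0.0415). The DMBA difference was past the threshold with DESeq2 (adjusted p = 0.00834) and without the DMBA+TAM libraries (0.0467), and the TAM short one with DESeq2 (0.000159), with only the groups compared (0.000835), without the DMBA+TAM libraries (0.029) and with no filter (0.0139), while the highest adjusted p over the alternatives was 0.977 in DMBA and 0.522 in TAM short. The TAM long call was lost with library size only (-0.17, adjusted p = 0.468), with limma and without any of its 4 libraries (adjusted p from 0.126 to 0.168, and from 4.15e-05 to 0.796 over all alternatives). TAM long was below TAM short by a log2 fold change of -0.98 (SE 0.17, adjusted p = 0.00166), a call that was lost with limma on log2(FPKM + 0.1) (-0.75, adjusted p = 0.253, the highest over the alternatives). As a share of the FPKM of both genes, *Hnf4g* went from 25.3 ± 1.23% in control to 14.2 ± 0.849% in TAM short, 3.89 ± 0.709% in TAM long and 2.19 ± 0.332% in DMBA, with no overlap between the groups.

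*Cdx1* (ENSMUSG00000024619, chr18:61018862-61036199), a CDX gene more active toward the distal gut and in crypts, was the member that rose. It had 115 and 91.1 normalized CPM in control, 161 and 185 in TAM short, 296 and 290 in DMBA and 231 and 188 in TAM long. Control was lowest and DMBA highest, and TAM short and TAM long lay close to each other between them. The log2 fold change against control was 1.51 in DMBA (SE 0.15, adjusted p = 4.06e-05), 1.02 in TAM long (SE 0.15, adjusted p = 0.000429) and 0.75 in TAM short (SE 0.15, adjusted p = 0.00929). In TAM short it was 0.59 without control replicate 2 (adjusted p = 0.103) and 0.65 without TAM short replicate 2 (adjusted p = 0.106), and the adjusted p was as low as 4.08e-05 with no filter. TAM long against TAM short was at 0.28 (adjusted p = 0.158), or 0.51 with library size only (adjusted p = 0.0331, and up to 0.657 without TAM long replicate 1).

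*Cdx2* (ENSMUSG00000029646, chr5:147300805-147307270) varied little outside DMBA+TAM. Its normalized CPM was 159 and 167 in control, 173 and 195 in TAM short, 265 and 183 in DMBA and 203 and 186 in TAM long, so that the groups overlapped except for control, which was lowest. The log2 fold change against control was 0.46 in DMBA (SE 0.19, adjusted p = 0.068), 0.18 in TAM short (SE 0.19, adjusted p = 0.591) and 0.25 in TAM long (SE 0.19, adjusted p = 0.293). The DMBA difference rests on replicate 1: it was 0.14 without that library (adjusted p = 0.515) and 0.69 without replicate 2 (adjusted p = 0.00498). It was also past the threshold with DESeq2 (adjusted p = 0.0486), with library size only (0.79, adjusted p = 0.0151), with no filter (0.0171), with limma on log2(FPKM + 1) (0.73, adjusted p = 0.028) and with thinned counts (0.62, adjusted p = 0.0203). The summed FPKM of the CDX genes was 111 ± 8.48 in control, 162 ± 14.6 in TAM short, 217 ± 26.4 in TAM long and 280 ± 56.6 in DMBA, and *Cdx1* made up 44.8 ± 4.93%, 54.8 ± 0.360%, 58.1 ± 1.97% and 63.1 ± 5.75% of it.

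*Onecut2* (ENSMUSG00000045991, chr18:64340020-64400987), which encodes a cut-homeodomain protein, had 88 and 285 counts in control, 14 and 17 in TAM short, 1 and 0 in DMBA, 1 and 1 in TAM long and 8 and 9 in DMBA+TAM. The groups did not overlap apart from DMBA and TAM long, and the control libraries lay far apart, at 9.95 and 34.3 normalized CPM. Against control, DMBA was lower by a ratio of 437 (95% counting interval 78.0 to 17317) and TAM long by a ratio of 237 (65.1 to 1962), both past the threshold (adjusted p = 6.06e-05 and 6.37e-05). Without control replicate 2 their fitted log2 fold changes went from -8.41 and -7.68 to -7.27 and -6.54, still past it. TAM short was at a log2 fold change of -3.56 (SE 0.56, adjusted p = 0.00298), or -2.41 without control replicate 2 (adjusted p = 0.0283) and -4.20 without control replicate 1, and stayed past the threshold under every alternative tried (adjusted p of at most 0.0444). TAM long was lower than TAM short by a ratio of 20.1 (5.12 to 173, adjusted p = 0.0101), a call that was lost without either TAM long library (adjusted p = 0.0585 and 0.052, in a range of 4.66e-09 to 0.662 over all alternatives), with limma and with counts thinned to the smallest library.

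*Pdx1* (ENSMUSG00000029644, chr5:147269959-147275848), the homeodomain factor of pancreas and duodenum, was near the limit of detection. Control held 3 and 5 counts of it, DMBA 2 and 8 and TAM long 8 and 8, and there were none in the TAM short and DMBA+TAM libraries. The highest normalized CPM, 0.899, was in DMBA replicate 2, the library with the pancreas genes *Pnlip*, *Prss2* and *Cpa1*, and what part the source of these genes has in the *Pdx1* counts there was not tested. TAM long, with 0.690 and 0.786, had at most 1 count of *Pnlip*, *Prss2* and *Cpa1* in each library. Its 101 and 133 normalized CPM over the pancreas list came nearly all from the elastase gene *Cela1* (671 and 827 counts) and the glucagon gene *Gcg* (490 and 524), which enteroendocrine cells also make. By counting error alone, a count of 0 in TAM short allows levels of up to 0.339 and 0.379 normalized CPM. Without the filter on low counts, its adjusted p against control was 1 for DMBA, 0.738 for TAM long and 0.0917 for TAM short, and for TAM long against TAM short, whose libraries held none, it was 0.0125. *Plut*, transcribed antisense to *Pdx1*, had 55 and 79 counts in control and 4 to 10 in DMBA, TAM short and TAM long.

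Antisense genes also overlap *Gata5*, *Gata6* and *Hnf4a*, and how strand was handled in counting is not stated, so reads in shared stretches cannot be told apart. *Gata5os* had at most 7 counts in a library and *Hnf4aos* at most 46, far fewer than their partners had in control. *1010001N08Rik*, opposite *Gata6*, had 57 and 58 counts in control and 19 to 27 in DMBA, TAM short and TAM long.

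Genes that these factors are known to drive were compared in the same fit. Of 20 enterocyte genes described as targets of GATA4, HNF4 or CDX2 in small intestine, 19 were lower in DMBA than in control and 0 higher, 18 lower and 1 higher in TAM long, and 10 lower and 1 higher in TAM short. Their median log2 fold change was -8.23, -6.91 and -1.23, beside 0.07, 0.05 and -0.04 over all tested genes. Of a list of 10 small intestine genes, 9 of which are also in the first list, 10 were lower in DMBA, all 10 also in TAM long, and 7 in TAM short, with medians of -11.76, -10.76 and -1.74. *Apoa4*, an apolipoprotein of chylomicrons, had no count in DMBA or TAM long and was at least 6780-fold and at least 7408-fold lower than in control (floor of 3 counts per library). *Apoc3*, another apolipoprotein, had 5600 and 6386 counts in control and at most 2 in a library of DMBA or TAM long. *Vil1*, the brush border gene villin, is in the list of 20 targets and in the general epithelial one and fell less, with log2 fold changes of -2.36 in DMBA and -2.33 in TAM long.

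TAM short showed another profile of these genes. *Gata4* was lower there than in control in the main fit, a call lost under some alternatives, while *Gata5* and *Hnf4a* were not lower. The part of *Gata4* in this profile was not tested. *Lct*, the lactase of proximal small intestine, had 11317 and 12909 counts in control and 27 and 7 in TAM short, a log2 fold change of -9.45 (SE 0.48, adjusted p = 3.59e-05). *Fabp1*, a fatty acid binding protein of proximal enterocytes, was at -9.19 (SE 0.83, adjusted p = 0.000239), while *Apoa4* was at -3.12 (SE 0.26, adjusted p = 0.000612) and *Rbp2*, a retinol binding protein, at -3.07 (SE 0.32, adjusted p = 0.000454). Of 5 ileal bile acid genes that GATA4 is known to hold down, 3 were higher in TAM short than in control and 0 lower, with a median of 5.92. *Fabp6*, the ileal bile acid binding protein, had 25 and 2 counts in control and 69451 and 71046 in TAM short (log2 fold change 12.38, SE 0.74, adjusted p = 1.67e-05). *Fgf15*, the bile acid signal from ileum to liver, had no count in control and 188 and 415 in TAM short, at least 105-fold higher, and the bile acid transporter *Slc10a2* was at 5.92 (SE 1.48, adjusted p = 0.0303). The export transporter genes *Slc51a* and *Slc51b* were at 1.45 and 1.06 (adjusted p = 0.467 and 0.107).

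In DMBA and TAM long, where *Gata4* was lower still, no ileal gene was called higher than in control. The part of *Gata4* in this was not tested either. *Fgf15* had no count in either group and *Fabp6* had 9 to 32 counts. *Slc51a* and *Slc51b* were lower in DMBA, at -3.70 and -2.77 (adjusted p = 0.0395 and 0.000973), and *Slc51b* in TAM long, at -3.17 (adjusted p = 0.000548). *Slc10a2* differed within TAM long, with 918 and 19 counts (log2 fold change 3.13, SE 1.40, adjusted p = 0.0995). Of 9 tested colon genes, DMBA had 9 above control, TAM long 7 and TAM short 2. *Car1*, a carbonic anhydrase of colonocytes, was at least 10322-fold higher in DMBA and at least 19947-fold in TAM long, and *Muc2*, the gel-forming mucin, rose by 3.43 and 3.15 on the log2 scale. *Aqp8*, a water channel, had 0 and 5 counts in control and 3249 to 9446 in DMBA and TAM long, and *Hoxb13*, a posterior homeobox gene, rests on DMBA replicate 2 with 1660 counts against 29 in replicate 1. In TAM short *B3gnt7*, a glycosyltransferase gene, was at 4.34 (SE 0.82, adjusted p = 0.00729). These segment lists were written with earlier results of these libraries known, and their counts are no independent evidence of a segment.

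**Figure D4:**
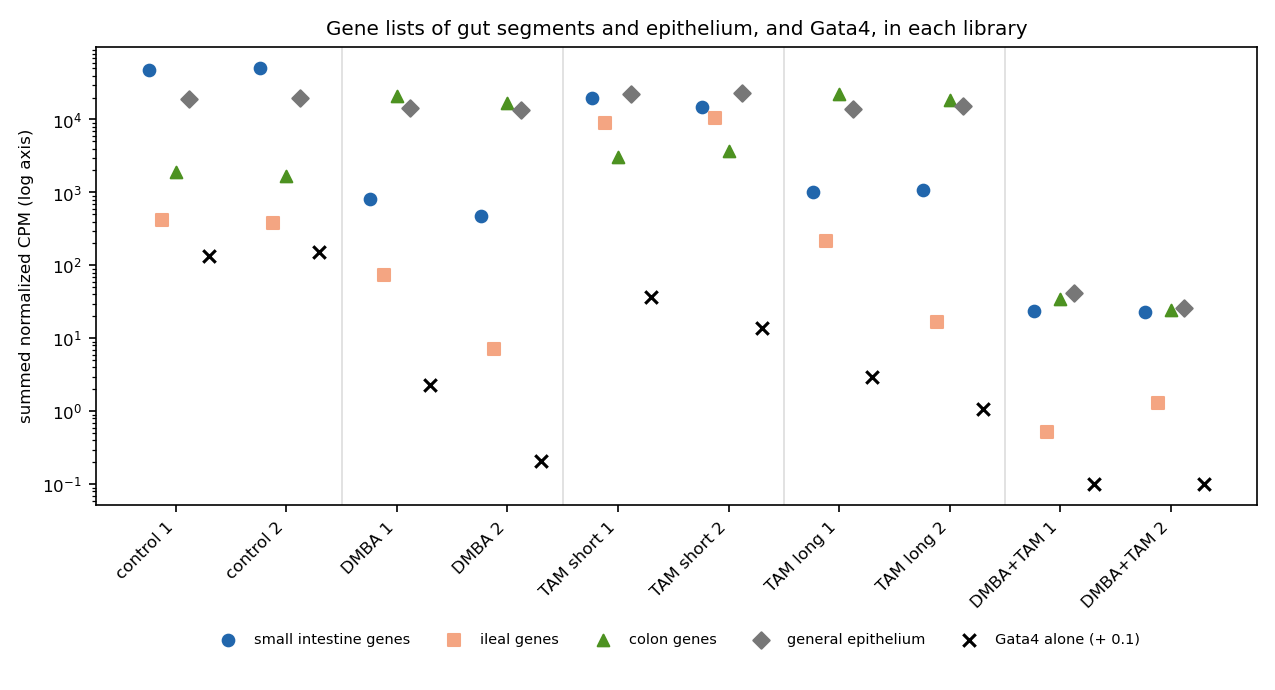
Summed normalized CPM of lists of small intestine, ileal, colon and general epithelial genes, and *Gata4* alone (+ 0.1), for each library on a log axis. Control has high small intestine genes with *Gata4*. TAM short has less *Gata4*, high ileal genes, and small intestine genes that are below control but still above the ileal sum (14933 and 19715 normalized CPM). DMBA and TAM long have little *Gata4* and high colon genes, and in DMBA+TAM all of these points lie low.

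Among 23 other tested transcription factors of gut epithelium, 10 were higher and 5 lower in DMBA than in control, 12 higher and 5 lower in TAM long, and 5 higher and 1 lower in TAM short, with medians of 0.21, 0.35 and 0.24 beside 0.07, 0.05 and -0.04 over all tested genes. *Creb3l3*, which drives apolipoprotein genes, was at -5.76 for DMBA, -6.21 for TAM long and -1.80 for TAM short, each past the threshold. *Sox9*, a factor of crypt cells, was at 2.63 in DMBA and 2.09 in TAM long, past the threshold in both, and at 0.15 in TAM short. *Foxa1* and *Foxa2*, forkhead factors, were at 2.39 and 2.92 in DMBA and at 2.23 and 2.17 in TAM long, all past the threshold. *Nr1h4*, the bile acid receptor FXR, was at 1.78 in TAM short (SE 0.30, adjusted p = 0.00451), 0.86 in TAM long (adjusted p = 0.0403) and -0.01 in DMBA. Of 11 tested mesenchymal transcription factors of the gut wall, 5 were higher and 1 lower in DMBA, 5 and 1 in TAM long, and 0 and 2 in TAM short, the lower one in DMBA and TAM long being *Tbx3* (-3.49 and -2.88). Smooth muscle genes moved with the letter too: 7 of 8 were higher than in control in DMBA, 8 of 8 in TAM long and 0 of 8 in TAM short, and in L against S libraries 8 of 8 were higher. Against control, 8 of 10 fibroblast genes rose and 1 fell in DMBA, 5 rose and 2 fell in TAM long, and 1 rose and 5 fell in TAM short. In L against S libraries 9 of 10 fibroblast and 5 of 6 endothelial genes were higher and 0 lower, mesothelial genes were higher in 1 and lower in 1 of 5 cases, and immune cell genes in 2 and 3 of 7. The part of these cell types in the members' differences was not tested.

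Over the 8 libraries with a letter, 6 members were lower and 1 higher in the L libraries (edgeR, mean of DMBA and TAM long against mean of control and TAM short), against 57.8% of all genes past the threshold, 27.5% lower and 30.4% higher. With limma on log2(FPKM + 1) 7 members passed, *Cdx2* among them, so a call of the main fit was lost there. On log2(FPKM + 0.1) 6 passed. In 6 members the L libraries all lay below the S libraries and in 1, *Cdx1*, above them, where 45.9% of all genes had no overlap, 21.7% lower and 24.2% higher. In *Cdx2* and *Pdx1* the libraries overlapped, and a two-sided exact permutation test over the 8 libraries gave p = 0.0857 and 0.143. The smallest p this test can give is 0.0286, which any gene without overlap reaches. The test treats the libraries as exchangeable, though they come in pairs from differently treated groups. With groups as the units the smallest p would be 0.333. *Cdx2* was at a log2 fold change of 0.27 (SE 0.13, adjusted p = 0.108) and passed with library size only (0.55, adjusted p = 0.0128), with limma on log2(FPKM + 1) (0.52, adjusted p = 0.0223), with thinned counts (0.37, adjusted p = 0.0351) and without DMBA replicate 2 (0.38, adjusted p = 0.00871), while its adjusted p reached 0.443 without DMBA replicate 1, the highest over the alternatives. *Pdx1*, on at most 8 counts a library, passed in edgeR with no filter (adjusted p = 0.0322). Its fold is not given, since TAM short, which is among the S libraries, held no count of it. Among the 7 without overlap, *Gata5* was the furthest apart, with 52.8 to 82.5 normalized CPM in the S libraries and 0 to 0.604 in the L libraries. *Cdx1* was the narrowest, with its highest S library at 185 and its lowest L library at 188.

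TAM long and DMBA, the 2 groups with an L, had 0 of 8 members past the threshold of edgeR's quasi-likelihood test, against 2.7% of all genes past the threshold, 1.24% higher and 1.46% lower. At an unadjusted p under 0.05 there were 2, *Cdx1* (log2 fold change -0.48, SE 0.15, adjusted p = 0.111) and *Hnf4g* (0.68, SE 0.19, adjusted p = 0.0986), and DESeq2 called 1, *Hnf4g* (adjusted p = 0.0287). With the replicate number as a block *Hnf4g* was also called (adjusted p = 0.0458; correlation of same-numbered libraries of this pair 0.32), and with no filter both were (adjusted p = 0.0315 for *Cdx1*, and for *Hnf4g* in a range of 0.00173 to 0.431 over all alternatives). A p that misses the threshold does not show that the groups were alike. The difference between L and S within TAM was set against that without TAM as an interaction, for which 2 of 8 members passed, 1 higher and 1 lower, against 5.71% of all genes, 2.93% higher and 2.78% lower. It was -1.23 for *Cdx1* (SE 0.21, adjusted p = 0.011) and 1.22 for *Hnf4g* (SE 0.26, adjusted p = 0.0313). The *Cdx1* value was -1.07 without control replicate 2 (adjusted p = 0.0676) and -1.13 without TAM short replicate 2 (adjusted p = 0.0809), in a range of adjusted p from 1.07e-06 to 0.0809. The *Hnf4g* call was lost with library size only, with both limma settings and with thinned counts (adjusted p from 0.0753 to 0.116), where that of *Cdx1* was kept. It was also lost without either control library, either TAM short library or TAM long replicate 1 (1.00 to 1.31, adjusted p from 0.0999 to 0.158), and over all alternatives its adjusted p went from 4.77e-06 to 0.158.

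In DMBA+TAM all 8 tested members were lower than in control, where 64.3% of all genes passed, 35.3% lower and 29.0% higher. *Hnf4a* had 4 and 1 counts against 8627 and 7817 in control, *Cdx1* 1 and 1 and *Cdx2* 1 and 0, and *Gata4*, *Gata5* and *Hnf4g* had none. The last 3 were at least 99.4-fold, 38.8-fold and 242-fold lower than in control, *Cdx1* was lower by a ratio of 215 (95% counting interval 59.4 to 1776) and *Cdx2* by a ratio of 678 (122 to 26791). *Hnf4a* was at a log2 fold change of -9.62 (SE 0.31, adjusted p = 1.27e-08), beside a median of -9.08 over the 10 general epithelial genes, of which 10 were lower. *Gata6* kept 12 and 29 counts (log2 fold change -3.17, SE 0.24, adjusted p = 1.62e-06). *Onecut2* kept 8 and 9 counts and was at -2.43 (SE 0.61, adjusted p = 0.00601), or -1.31 without control replicate 2 (adjusted p = 0.0573, the highest over the alternatives). Genes of other cell types were above their control level in 9 of 10 cases for fibroblasts, 6 of 6 for endothelium and 5 of 7 for immune cells, while smooth muscle genes were higher in 2 and lower in 4 of 8 cases, mesothelial genes in 1 and 4 of 5, and mesenchymal transcription factors in 1 and 6 of 11. *Gata2*, a GATA factor of blood and endothelial cells, had 6.38 ± 1.56 normalized CPM; the part of these cells in the *Gata6* and *Onecut2* counts was not tested. The median over the members was -9.46, or -7.17 with those at 0 set to their bound, beside -0.17 over all genes.

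Against the other groups the picture of DMBA+TAM was alike for most members. Against TAM short 7 of 8 were lower and 0 higher (all genes 63.1%, 33.8% lower and 29.3% higher), with *Onecut2* at 1.13 (SE 0.74, adjusted p = 0.208). With only the groups compared 8 passed, *Onecut2* included. Against DMBA 5 were lower and 1 higher (all genes 55.1%, 29.9% lower and 25.2% higher), and against TAM long 5 and 1 (all genes 55.2%, 29.9% lower and 25.3% higher). The member that was higher was *Onecut2*, by a ratio of 82.1 over DMBA (12.9 to 3429.5) and 44.4 over TAM long (10.5 to 397), from 17 counts against 1 and 2. With limma on log2(FPKM + 1) 5 members passed against DMBA and 5 against TAM long, and on log2(FPKM + 0.1) 8 passed against TAM long. *Gata4* and *Gata5* could not be compared with DMBA or TAM long, since their means there were at or near the level that 3 counts stand for in a DMBA+TAM library, and no median over the members is given for those comparisons. Against TAM short the members' median, with those at 0 set to their bound, was -6.57, beside -0.14 over all genes.

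The genes whose pattern over the 10 libraries was most like that of each member were found by the root mean square difference of centred log2(normalized CPM + 1) among 10126 genes. Libraries share depth and cell make-up, so nearness is a description. For *Gata4* they were *Ms4a10* (0.61) and *Tm4sf4* (0.62), for *Gata5* *Myrfl* (0.36) and *Dab1* (0.38), and for *Hnf4g* *Smim24* (0.35) and *Otc* (0.41). *Hnf4a* lay nearest to *Lgals4* (0.27) and *Cldn7* (0.29), *Cdx1* to *Prss32* (0.18) and *Fermt1* (0.27), *Cdx2* to *B4galnt2* (0.22) and *Spint2* (0.24), and *Gata6* to *Cs* (0.19) and *Pdss1* (0.20). *Onecut2* had *Fam213a* (0.53) and *Tlcd2* (0.56), and *Pdx1* is left out since nearly flat genes lie near it. Among the members themselves the nearest pair was *Cdx1* and *Cdx2* (0.42).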

How the data were processed

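Expression was measured by RNA-seq in 10 libraries. Per the methods and processing notes, the authors aligned reads with TopHat 2.0.12 to GRCm38.p6 and counted them with HTSeq 0.6.1; the deposited table holds raw read counts per gene and FPKM values computed by the authors (fragments scaled to gene length and depth), and 98.8% of its gene IDs are in GENCODE M21. Columns of the authors' own comparisons (fold changes and p-values) were not used, and 5 fragments of split lines, which name no gene, were left out. Groups came from the treatment labels. The 9 members and all gene lists were chosen with earlier results of these data known; from each list up to 4 genes were named, those with the largest absolute change among called genes averaging 50 counts or more, and for each member its 2 nearest genes with a mean of at least 10 normalized CPM. Other genes were named after their values were seen.

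The test was that of edgeR 4.0.16 under R 4.3.3 (TMM, filterByExpr, quasi-likelihood F-test, Benjamini-Hochberg over 16179 genes, 0.05) in one fit of the 5 groups. The SE given with a log2 fold change is its absolute size divided by the square root of the F statistic. It therefore restates the test and is no separate measure of spread, least of all for genes near 0 counts. Normalized CPM uses the TMM-scaled library total. Alternatives were DESeq2 1.42.0, library-size scaling, no filter, only the groups compared, a replicate block, limma 3.58.1 on log2(FPKM + 1) or log2(FPKM + 0.1), thinning to the smallest library, and leaving out libraries. A gene at 0 in a group was given a floor of 3 counts per library, and with 1 to 3 counts a ratio with a 95% exact counting interval; floors and intervals cover counting error only. On simulated data edgeR recovered 90% of 4-fold and 23% of 2-fold changes for DMBA against control. For DMBA+TAM against control it recovered 79% and 19%. The simulation gave all genes and groups the same dispersion (spread between replicates) and changed 100 genes per fold. These rates therefore do not carry over to the real libraries. Libraries of 8828247 to 10923673 counts gave 3 counts the value of 0.259 to 0.379 normalized CPM, and the 2 shallow DMBA+TAM libraries 1.58 and 1.32. Figures were drawn with matplotlib 3.10.9.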

Additional observations from a re-analysis of the deposited data

Results flagged for a closer look

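In 2 of the 8 tested members the difference between the L and S libraries passed the threshold as unequal with and without tamoxifen, by a test of that difference itself (the interaction term of edgeR's quasi-likelihood fit). Of all tested genes 5.71% passed, 2.93% higher and 2.78% lower. For *Cdx1* the log2 fold change of L against S was 1.51 without tamoxifen and 0.28 with it (the latter not past the threshold, adjusted p = 0.158), a difference of -1.23 (SE 0.21, adjusted p = 0.011). *Hnf4g* was lower in the L libraries in both, by -4.23 without tamoxifen and -3.01 with it, a difference of 1.22 (SE 0.26, adjusted p = 0.0313). Neither call held under every alternative: that of *Cdx1* was lost without control replicate 2 or TAM short replicate 2 (adjusted p = 0.0676 and 0.0809, in a range from 1.07e-06), and that of *Hnf4g* with library size only, limma and thinned counts and without either control library, either TAM short library or TAM long replicate 1 (adjusted p from 4.77e-06 to 0.158 over all alternatives). DMBA and the letter L go together in the libraries without tamoxifen, so the agent and whatever the letter stands for cannot be told apart.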

How the results depend on the processing

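Of 1167 values of a member under an alternative, 1070 kept their direction and side of the threshold, 51 lost the threshold, 37 gained it and 9 turned direction, none of the 9 past the threshold. For TAM long against DMBA these were *Gata4* without DMBA replicate 2 (-0.19) and TAM long replicate 1 (-0.35), in a range of -0.35 to 3.94 leaving out a library, *Gata5* without DMBA replicate 2 (-0.082, range to 4.98), *Gata6* without DMBA replicate 2 (0.046, range from -0.21) and *Cdx2* without DMBA replicate 1 (0.087, range from -0.45). For TAM long against TAM short it was *Cdx2* without TAM short replicate 1 (-0.012, range to 0.16), and for the interaction *Gata5* with limma on log2(FPKM + 1) (-0.46) and without DMBA replicate 2 (-0.57) or TAM long replicate 1 (-0.10), in a range up to 4.50. The upper ends for *Gata5*, 4.98 and 4.50, come without DMBA replicate 1, where DMBA held no count of it, so they are fitted values and not measured sizes. The number of members called moved in TAM short against control from 4 to 7 with only the groups compared, 2 with limma on log2(FPKM + 0.1) and 1 to 3 leaving out a library. In TAM long against TAM short it moved from 6 to 3 with limma on log2(FPKM + 0.1). In TAM long against DMBA it moved from 0 to 1 with DESeq2, 2 with no filter, 1 with the replicate block and 0 to 1 leaving out a library. For the interaction it moved from 2 to 1 with library size only, either limma setting or thinning, 4 with no filter and 0 to 3 leaving out a library. The count over all genes moved with thinning to 4824 (DMBA against control, from 7735), 1300 (TAM short against control, from 2317), 4602 (TAM long against control, from 7444), 4075 (TAM long against TAM short, from 6835), 241 (TAM long against DMBA, from 437), 6101 (L against S, from 9355) and 454 (interaction, from 924). Leaving out a library gave 669 to 1057, 4946 to 5573, 4258 to 5017, 58 to 1036 and 179 to 1618 in TAM short and TAM long against control, TAM long against TAM short, TAM long against DMBA and the interaction. TAM short against control had 4317 with only the groups compared. TAM long against DMBA had 870 with DESeq2, 1615 with no filter, 29 with only the groups compared and 290 and 199 with limma, and the interaction 2025 with no filter and 602 with limma on log2(FPKM + 0.1). The cause was not tested. Same-numbered libraries did not deviate together in all pairs of groups (correlations from -0.06 to 0.32, the last for DMBA and TAM long and no other over 0.1), so the numbers were not taken as a pairing; with them as a replicate block, *Hnf4g* passed in TAM short against control (adjusted p = 0.0267) and in TAM long against DMBA (0.0458). In 3 cases no alternative value existed because neither group had a count left. Depth limits *Pdx1* in all groups and most members in DMBA+TAM.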
